A study of Mus musculus with 16 samples.

Results

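The pan-neuronal differentiation genes are 9 genes that most kinds of neuron switch on as they leave the cell cycle and grow processes: Dcx, Tubb3, Map2, Stmn2, Gap43, Elavl3, Elavl4, Rbfox3 and Myt1l. They were chosen by name, and all 9 were found among the 21887 protein-coding genes that RefSeq places on GRCm38. Chromatin marks over them were read from lists of enriched regions, called islands, made from chromatin immunoprecipitation and sequencing (ChIP-seq) of mouse neural stem cells. An island counted to a gene when it touched the gene's annotated span or the 5 kb on either side, and 274 islands in 13 lists did so, 112 of them at Map2. All coordinates are those of GRCm38, counted from 1.

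The series asks what SETD5, which its title calls an H3K36 methyltransferase, does to chromatin in the developing brain. Setd5+/- cells, heterozygous for Setd5, gave 1 library for each of 6 histone marks, wild-type cells gave 1 library for each of the same marks, and wild-type cells with V5-tagged SETD5 gave 1 library of SETD5-V5. The cells of all groups came from the telencephalic cortex of mouse embryos at E14.5, were grown as neurospheres with bFGF and EGF, and were plated on Matrigel before fixation with formaldehyde. The Setd5 allele, the sex and number of embryos, and whether a culture was 1 clone are not stated in the labels. With 1 library per group there is no replicate check, so no p-value is given for any difference between genotypes, and such differences cannot be told apart from differences between cultures or preparations.

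H3K4me3 lies at starts open to transcription and H3K27ac at active starts and enhancers, H3K4me1 lies at enhancers, and H3K36me3 is laid down over gene bodies as they are transcribed, while H3K36me2 forms broader domains. H3K27me3 is the mark of Polycomb repression, and in stem cells many genes kept for later stages carry it together with H3K4me3. In neural stem cells pan-neuronal genes are known to be held low, in part by the repressor REST and its partner RCOR1, until a cell becomes a neuron.

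Both genotypes carried the marks of radial glia, the neural stem cells of the cortex. Of 12 radial glia genes, 9 in Setd5+/- cells and 9 in wild-type cells had H3K4me3 and H3K27ac, without H3K27me3, at a start, Sox2, Nes, Vim and Fabp7 among them, against 35.1% of all genes in Setd5+/- cells and 36.9% in wild-type cells. Pax6 had none of these marks within 1 kb of an annotated start, although H3K4me3 covered 14.2% of it in Setd5+/- cells and 26.4% in wild-type cells. Of 7 microglia and blood genes, 6 had none of these marks at a start in Setd5+/- cells and 6 in wild-type cells, against 38.2% of all genes in Setd5+/- cells and 36.5% in wild-type cells. The same held for 6 of 8 endothelial and mesenchymal genes in Setd5+/- cells and 5 of 8 in wild-type cells, and for 4 of 6 astrocyte genes in Setd5+/- cells and 3 of 6 in wild-type cells, Gfap among them in both. Of 8 oligodendrocyte genes, 4 had none of them in Setd5+/- cells and 2 in wild-type cells. Markers of other glia were thus not all bare, since the oligodendrocyte lineage genes Olig1 and Olig2 and the astrocyte gap junction gene Gja1 had H3K4me3 and H3K27ac at a start in both genotypes. The libraries held from 1019278 to 5093126 reads in their islands. Totals also differed within a mark, with H3K27me3 at 1398086 reads in Setd5+/- cells and 2297833 in wild-type cells. H3K4me1 had 1110651 in Setd5+/- cells and 1988772 in wild-type cells, and H3K36me2 2418955 and 1073942. Read counts of single islands given below are not scaled to these totals. Chromosomes 1 and 15 carried more island length in the Setd5+/- lists than in the wild-type lists for every histone mark. Chromosome 4 did so for every mark but H3K4me1. For chromosome 1, H3K27ac covered 6.25 Mb in Setd5+/- cells and 2.58 Mb in wild-type cells, and H3K27me3 7.39 Mb and 3.10 Mb. On chromosome 1, H3K36me2 covered 63.1 Mb in Setd5+/- cells and 6.96 Mb in wild-type cells, whereas over the 16 autosomes other than 1, 4 and 15 it covered 33.6 Mb in Setd5+/- cells and 55.0 Mb in wild-type cells. On chromosome X, H3K27me3 covered 6.71 Mb in Setd5+/- cells and 22.2 Mb in wild-type cells. Map2 is on chromosome 1, Elavl4 on chromosome 4 and Dcx on chromosome X, so at these 3 genes the genotype cannot be told apart from the state of the whole chromosome, and chromosome values stand beside their results.

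Promoter windows of 5 of the genes are shown because the genes differed in both CpG content and H3K4me3. Each holds 250 bases before and 50 bases after a transcription start, from RefSeq (GRCm38.p6), in the direction of transcription, with every CpG in capitals. The windows are chr1:66175079-66175378 on the plus strand for Map2, chr8:123411303-123411602 on the plus strand for Tubb3, chr9:22051974-22052273 on the minus strand for Elavl3, chr4:110351862-110352161 on the minus strand for the upstream start of Elavl4, and chrX:143933170-143933469 on the minus strand for the upstream start of Dcx.
Map2: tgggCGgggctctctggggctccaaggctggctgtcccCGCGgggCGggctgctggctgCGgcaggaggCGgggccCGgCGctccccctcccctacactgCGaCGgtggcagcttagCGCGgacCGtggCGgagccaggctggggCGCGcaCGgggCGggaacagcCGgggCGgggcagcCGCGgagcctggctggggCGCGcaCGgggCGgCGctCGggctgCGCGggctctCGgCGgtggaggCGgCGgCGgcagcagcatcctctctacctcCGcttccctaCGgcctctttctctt
Tubb3: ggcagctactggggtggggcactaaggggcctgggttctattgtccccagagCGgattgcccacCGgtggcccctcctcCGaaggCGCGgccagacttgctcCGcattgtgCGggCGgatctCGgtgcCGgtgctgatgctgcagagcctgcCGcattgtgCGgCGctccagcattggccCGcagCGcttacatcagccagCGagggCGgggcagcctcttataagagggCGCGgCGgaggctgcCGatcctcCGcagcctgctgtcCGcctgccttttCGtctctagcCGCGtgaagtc
Elavl3: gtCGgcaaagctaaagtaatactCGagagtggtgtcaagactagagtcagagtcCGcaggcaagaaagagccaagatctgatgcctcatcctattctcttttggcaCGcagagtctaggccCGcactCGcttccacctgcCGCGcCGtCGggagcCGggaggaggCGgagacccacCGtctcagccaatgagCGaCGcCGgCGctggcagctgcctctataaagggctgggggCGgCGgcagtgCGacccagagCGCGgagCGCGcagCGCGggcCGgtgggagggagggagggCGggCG
Elavl4: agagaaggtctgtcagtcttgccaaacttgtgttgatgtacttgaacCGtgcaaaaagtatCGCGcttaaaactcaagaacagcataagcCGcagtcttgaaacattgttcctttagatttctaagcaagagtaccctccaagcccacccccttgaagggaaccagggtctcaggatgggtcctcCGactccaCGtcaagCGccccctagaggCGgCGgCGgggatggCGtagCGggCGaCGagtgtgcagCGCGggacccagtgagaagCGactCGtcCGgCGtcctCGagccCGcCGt
Dcx: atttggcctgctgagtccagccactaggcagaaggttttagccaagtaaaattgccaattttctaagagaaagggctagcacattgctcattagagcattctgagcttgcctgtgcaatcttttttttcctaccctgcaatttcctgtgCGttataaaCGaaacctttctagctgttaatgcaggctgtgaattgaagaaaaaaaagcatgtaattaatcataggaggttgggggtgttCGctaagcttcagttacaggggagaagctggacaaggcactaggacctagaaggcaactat
The CpG count was 37 in Map2, 29 in Elavl3, 26 in Tubb3 and 23 at the upstream start of Elavl4, against 3 in Dcx and 4 in the only Rbfox3 window. The median over 32851 RefSeq windows of mouse genes was 7. Windows with 20 or more CpGs had an H3K4me3 island within 1 kb in 93.2% of cases in Setd5+/- cells and 94.3% in wild-type cells. For windows with under 10 CpGs the share was 14.0% in Setd5+/- cells and 14.3% in wild-type cells. Map2, Tubb3 and the upstream start of Elavl4 followed the first of these classes in both genotypes and Dcx and Rbfox3 the second. Elavl3, with the second highest count of the 5 windows, lacked an H3K4me3 island in Setd5+/- cells and had a weak one in wild-type cells. The 3 internal windows of Elavl4 held 4 to 6 CpGs, and the 5 windows of Myt1l held 4 to 13. These Elavl4 starts nevertheless had an H3K4me3 island within 1 kb, of 338 reads in Setd5+/- cells and 467 in wild-type cells. So did the first Myt1l start, with 4 CpGs, at 44 reads in Setd5+/- cells and 61 in wild-type cells. The other Myt1l starts had none.

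Short motifs were looked for on both strands of these windows. The left and right parts of the RE1 element bound by REST are CAGCACC, found in 7.14% of all windows, and GGACAG, found in 22.2%. Among the windows shown, Tubb3 held both parts and Map2 held GGACAG. No window of the 7 genes with entries held the parts in order within 12 bases of each other, which 0.113% of all windows did. Of the E-boxes, CAGCTG, present in 16.3% of all windows, occurred in Elavl3, and CAGATG, present in 17.2%, in none of those shown. The CCAAT box, present in 37.4%, occurred in Tubb3, Elavl3 and Dcx. A match is a string of letters and no measured binding site. Stmn2 and Gap43 had no window, and for them either annotated end was used as a start.

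At their starts the 9 genes fell into several chromatin classes. A start counted as marked with an island within 1 kb. H3K4me3 marked 5 of 9 genes in Setd5+/- cells and 6 of 9 in wild-type cells, against 58.6% of all genes in Setd5+/- cells and 60.2% in wild-type cells. H3K27ac marked 3 genes in Setd5+/- cells and the same 3 in wild-type cells, Map2, Elavl4 and Gap43, against 35.9% of all genes in Setd5+/- cells and 37.9% in wild-type cells. H3K4me1 marked 2 genes in Setd5+/- cells and 3 in wild-type cells, against 16.6% of all genes in Setd5+/- cells and 34.8% in wild-type cells. For these 3 marks the counts sit near the shares over all genes. H3K4me1 marked a start in Setd5+/- cells alone at Map2, as at 3.13% of all genes, and in wild-type cells alone at Gap43 and Myt1l, as at 21.4%. H3K27me3 marked 2 of 9 genes in Setd5+/- cells, Stmn2 and Myt1l, and 4 of 9 in wild-type cells, these and Tubb3 and Elavl3, against 6.18% of all genes in Setd5+/- cells and 7.94% in wild-type cells. With an island required over the start base itself, H3K27me3 marked 2 genes in each genotype, Stmn2 and Myt1l, so the difference at Tubb3 and Elavl3 rests on islands beside the start. H3K4me3 and H3K27me3 together marked 1 gene in Setd5+/- cells and 3 in wild-type cells, against 3.00% of all genes in Setd5+/- cells and 4.65% in wild-type cells. Over the start base itself, H3K4me3 lay at 4 genes in each genotype, Tubb3, Map2, Elavl4 and Gap43. None of these had H3K27me3 over a start base, so the class with both marks rests on islands within 1 kb. At Tubb3 the nearest wild-type H3K27me3 island began 0.048 kb past the start. Islands of both marks overlapped each other at Tubb3 in wild-type cells and at Myt1l in both genotypes, but not at Elavl3. Dcx and Rbfox3 had none of the 4 marks at a RefSeq start in either genotype. The only RefSeq start of Rbfox3 is internal, and within 1 kb of its upper annotated end lay a wild-type H3K27me3 island and no Setd5+/- one. With either annotated end as start, H3K27me3 marked 3 genes in Setd5+/- cells and 5 in wild-type cells.

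**Figure D1:**
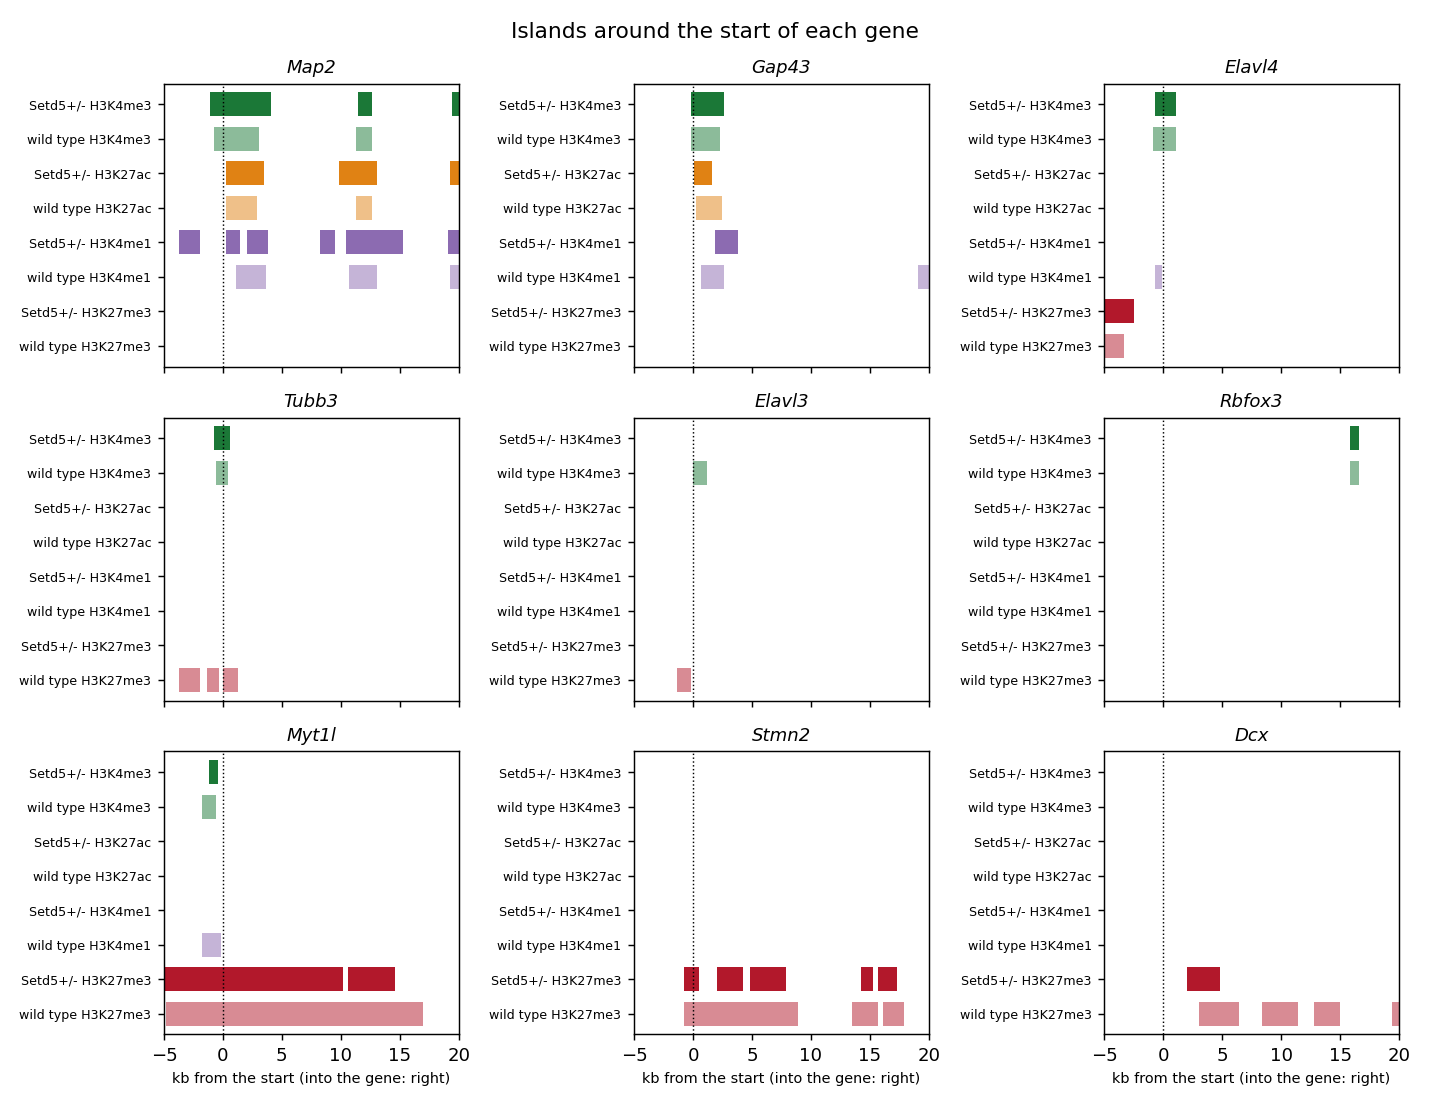
Islands of H3K4me3, H3K27ac, H3K4me1 and H3K27me3 around the starts of the genes, with distance from the start in kb on the horizontal axis and Setd5+/- islands (darker) above wild-type islands (lighter). Tubb3 and Elavl3 carried H3K27me3 islands in wild-type cells and none in Setd5+/- cells, while Map2, Elavl4 and Gap43 carried H3K4me3 in both genotypes. For Stmn2 distances run from the lower annotated end, and for Gap43 from the upper end.

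The promoter class differed between genotypes at 2 of 9 genes, Tubb3 and Elavl3, and at 16.6% of all genes. H3K4me3 was at a start in wild-type cells alone at 1 gene, Elavl3, as at 2.28% of all genes, and H3K27me3 in wild-type cells alone at 2 genes, as at 3.31%. The H3K27me3 comparison had 2 of the 4 genes marked in wild-type cells unmarked in Setd5+/- cells, beside 724 of 1738, or 41.7%, of all genes marked in wild type. With so few genes, neither 2 of 9 beside 16.6% nor 2 of 4 beside 41.7% stands clear of the share over all genes. Whether 1 and 2 of the 9 genes differ from 2.28% and 3.31% was not tested. Of the 1018 genes with both H3K4me3 and H3K27me3 at a start in wild-type cells, 47.6% kept both in Setd5+/- cells as Myt1l did, 29.9% had H3K4me3 alone as Tubb3 did, and 5.99% had none of the marks as Elavl3 did.

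Along the gene, covered percent is the share of the annotated span lying under islands, and a difference of at least 10 percentage points was counted. For H3K27me3, 2 genes were lower in Setd5+/- cells by that measure, Dcx and Tubb3, and none was higher, against 4.24% of all genes lower and 1.55% higher. Dcx is on chromosome X, where 34.9% of genes were lower. By any amount, H3K27me3 covered percent was lower in Setd5+/- cells at 5 genes, equal at 4 and higher at none, against 9.59% of all genes lower and 4.77% higher. Of the genes with H3K27me3 over any of the span in wild-type cells, 77.8% were lower, a share that picking by wild-type coverage itself raises. The list itself covered 47.1 Mb in Setd5+/- cells and 64.4 Mb in wild-type cells. The median difference over the 9 genes was -2.93 points, the value of Myt1l, which was -0.25 with both lists at the same covered length. For H3K36me3, Map2 and Gap43 were higher by at least 10 points and no gene was lower, against 9.74% of all genes higher and 10.6% lower. For H3K36me2, Map2 was higher and Gap43 lower, against 3.63% of all genes higher and 1.95% lower. H3K27ac was higher at Map2 and lower at no gene, against 4.41% of all genes higher and 3.42% lower. H3K4me1 was likewise higher at Map2 and lower at none, against 2.06% of all genes higher and 9.33% lower. No gene differed by 10 points for H3K4me3, for which 1.66% of all genes were higher and 1.88% lower.

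**Figure D2:**
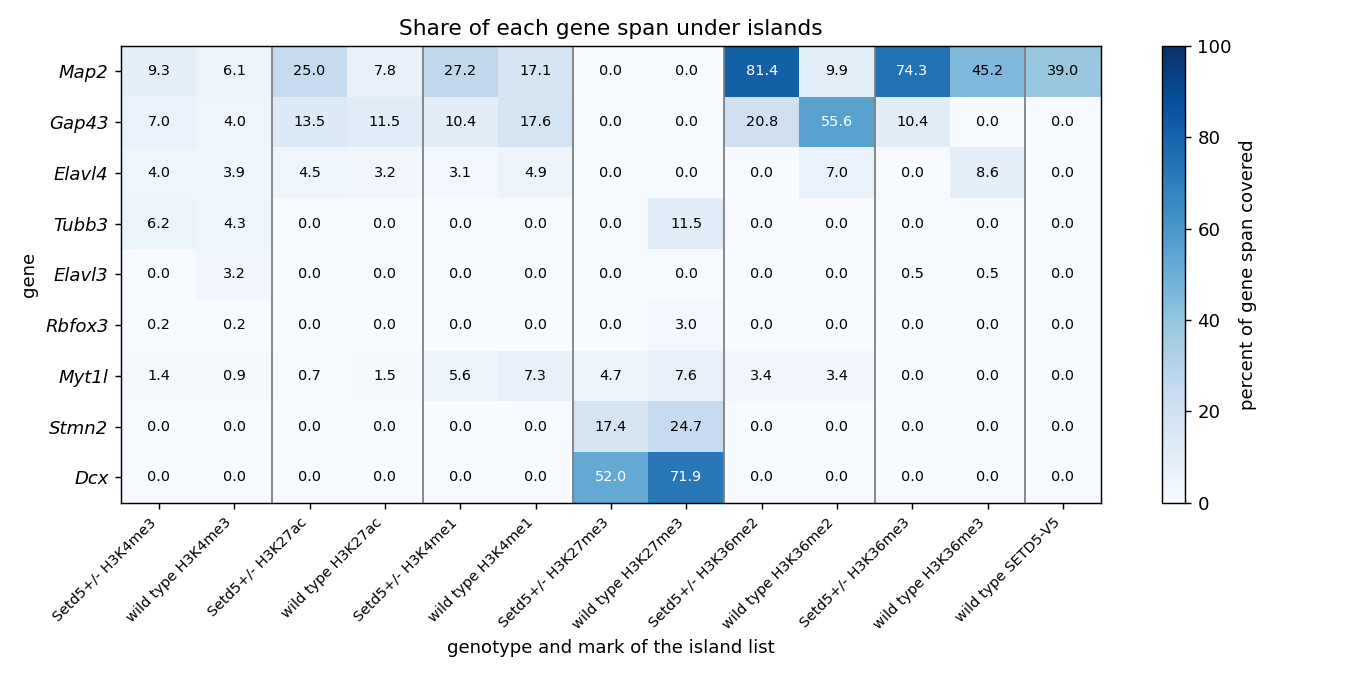
Heat map of the percent of each gene's annotated span covered by islands, with 1 row per gene and 1 column per list, the Setd5+/- column to the left of the wild-type column for each mark, and the value written in each cell. Darker cells are more covered. Map2 stands above the other genes for H3K36me2 and H3K36me3, at 81.4% and 74.3% in Setd5+/- cells, and Dcx for H3K27me3, at 52.0% in Setd5+/- cells and 71.9% in wild-type cells.

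Map2, the microtubule-associated protein of dendrites, lies at chr1:66175202-66442583 and had the fullest set of marks. At its start the H3K4me3 island held 697 reads over 5.2 kb in Setd5+/- cells and 472 reads over 3.8 kb in wild-type cells. The start also had H3K27ac islands of 96 reads in Setd5+/- cells and 72 reads in wild-type cells. H3K4me3 was thus strong at the start in both genotypes, and the gene had no H3K27me3 island in either. The densest H3K4me3 island of the gene was internal, from 145 to 150 kb past the start, with 1102 reads in Setd5+/- cells and 987 reads in wild-type cells.

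Downstream of that internal island the gene body differed from the part before it in wild-type cells. H3K36me3 covered 74.3% of the span in Setd5+/- cells, in 8 islands with 4632 reads, and 45.2% in wild-type cells, in a single island of 123.2 kb and 1891 reads that ran from 146 to 269 kb past the start. In the first 146 kb Setd5+/- cells had 6 H3K36me3 islands and wild-type cells had none. The 3 SETD5-V5 islands of wild-type cells, with 354, 582 and 1169 reads, began at 148 kb, covered 39.0% of the span and lay in the same distal stretch as wild-type H3K36me3. Map2 was the only one of the 9 genes with a SETD5-V5 island, against 22.3% of all genes with one over any of the span.

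**Figure D3:**
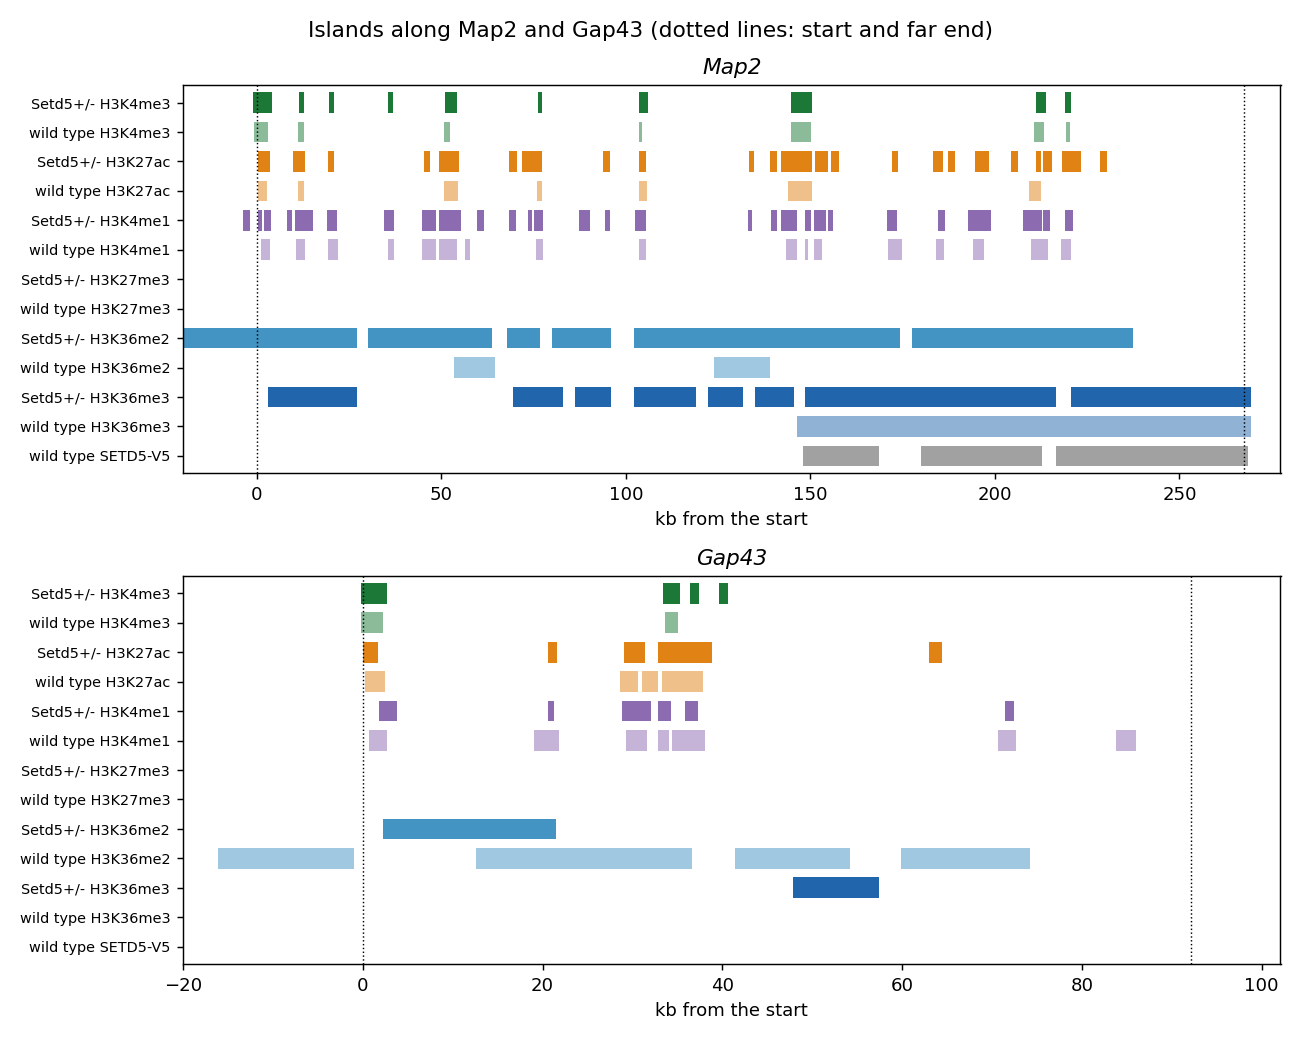
Islands along Map2 (upper panel) and Gap43 (lower panel), with distance from the start in kb on the horizontal axis and 1 row per list, Setd5+/- above wild type for each mark. In Map2 wild-type H3K36me3 and SETD5-V5 lie past 146 kb, and Setd5+/- H3K36me3 and H3K36me2 islands lie over most of the gene. In Gap43 the Setd5+/- list has 1 H3K36me2 island and the wild-type list 4.

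H3K36me2 differed most at Map2. Its islands covered 81.4% of the span in Setd5+/- cells, in 6 islands with 6305 reads, the first of which began 68.9 kb upstream, and 9.87% in wild-type cells, in 2 islands with 434 reads. H3K27ac covered 25.0% in Setd5+/- cells, in 23 islands, and 7.78% in wild-type cells, in 7 islands. H3K4me1 covered 27.2% in Setd5+/- cells, in 27 islands, and 17.1% in wild-type cells, in 17 islands. Without the 25% of islands with the lowest density in each list, the difference was 5.61 points for H3K27ac and 8.83 points for H3K4me1.

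Map2 was read against its chromosome. Among the 1204 genes of chromosome 1, 39.6% were higher by at least 10 points for H3K36me2, 28.7% for H3K36me3 and 10.7% for H3K4me1, and 175 of the 1204 were higher for H3K27ac. Of 201 chromosome 1 genes of at least 100 kb, 145, or 72.1%, had such a difference for H3K36me2 and 43, or 21.4%, a larger one than Map2. For H3K36me3, 85 of the 201, or 42.3%, had such a difference and 55, or 27.4%, a larger one than Map2. The H3K36 methylation of Map2 was therefore within the range of long genes on chromosome 1. For H3K27ac, 17 of the 201 long genes (8.46%) were higher by at least 10 points and 2 (0.995%) lay above Map2. H3K4me1 was higher by that measure at 12 of the 201 (5.97%), and 10 (4.98%) lay above Map2.

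Tubb3, which encodes the neuronal class of beta-tubulin, lies at chr8:123411553-123422015 and differed in promoter class between genotypes. Its H3K4me3 island held 78 reads over 1.4 kb in Setd5+/- cells and 29 reads over 1.0 kb in wild-type cells. Setd5+/- cells had no H3K27me3 island there, and wild-type cells had 3, of 39, 35 and 46 reads. H3K27me3 covered none of the span in Setd5+/- cells and 11.5% in wild-type cells. The wild-type islands of 39 and 35 reads also overlap Mc1r, the melanocortin receptor gene just upstream, so those reads cannot be given to Tubb3 alone. No H3K27ac, H3K4me1 or H3K36 island lay on the gene in either genotype. H3K27me3 length over chromosome 8 as a whole was 1.86 Mb in Setd5+/- cells and 1.86 Mb in wild-type cells.

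Dcx, the microtubule-associated protein of migrating young neurons, lies at chrX:143855842-143933396 and carried H3K27me3 alone. Islands covered 52.0% of the span in Setd5+/- cells, where 14 with 1057 reads touched it, and 71.9% in wild-type cells, where 10 with 1676 reads did. With both lists brought to the same covered length, the difference was -8.82 points. The body was thus under Polycomb marking in both genotypes, more of it in wild type, while both starts were outside the islands, the nearest beginning 2.02 kb inside the gene in Setd5+/- cells and 3.02 kb inside in wild-type cells. In the 7 stretches marked in both genotypes the density of reads differed little, as described below. Of 252 chromosome X genes with H3K27me3 over at least 25% of the span in wild-type cells, 234 (92.9%) were lower by at least 10 points in Setd5+/- cells, and 203 (80.6%) were below 25% there, which Dcx was not. These genes were picked by wild-type coverage, which itself favours lower values in Setd5+/- cells.

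Stmn2, a stathmin that frees tubulin from microtubules in growing axons, lies at chr3:8509527-8561604 and also had H3K27me3 as its only mark. Islands covered 17.4% of the span in Setd5+/- cells, in 6 islands with 294 reads, and 24.7% in wild-type cells, in 3 islands with 476 reads. At the lower annotated end Setd5+/- cells had 3 islands of 27, 70 and 104 reads, and wild-type cells had 1 island of 9.6 kb with 381 reads over the same stretch. Both genotypes were marked at that end, and the wild-type domain was unbroken.

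Gap43, a membrane protein of the growth cone, lies at chr16:42248552-42340651 and carried H3K4me3 and H3K27ac at its upper annotated end, which is taken as its start here. H3K4me3 held 398 reads in Setd5+/- cells and 358 reads in wild-type cells there, and H3K27ac 32 reads in Setd5+/- cells and 47 reads in wild-type cells. A second cluster of H3K27ac, H3K4me1 and weaker H3K4me3 islands lay from 29 kb inside the gene onward in both genotypes. H3K27me3 was absent from the lists over Gap43 in both.

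H3K36me2 and H3K36me3 differed in opposite directions at Gap43. H3K36me2 covered 20.8% of the span in Setd5+/- cells, in 1 island with 317 reads, and 55.6% in wild-type cells, where 3 islands with 758 reads touched it. The difference of -34.7 points was -13.9 without the 25% of islands with the lowest density in each list and -55.6 with both lists at the same covered length. The second step cut the whole Setd5+/- list, of which chromosome 1 made up 63.1 Mb, and removed its only Gap43 island. That island was denser than only 3.91% of the list. H3K36me3 covered 10.4% in Setd5+/- cells, in 1 island of 9.6 kb with 152 reads lying 47.9 to 57.5 kb from the upper end, and none of it in wild-type cells, a difference that was 9.40 points with the flanks included. The lower H3K36me2 was common among genes covered by this mark in wild-type cells, though picking genes by wild-type coverage itself favours lower values in Setd5+/- cells. Of 193 genes on the 16 other autosomes with H3K36me2 over at least 25% of the span in wild-type cells, 157, or 81.3%, were lower by at least 10 points in Setd5+/- cells, and on chromosome 16 the mark covered 1.90 Mb in Setd5+/- cells and 3.25 Mb in wild-type cells.

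Elavl4, an RNA-binding protein of the Hu family that stabilises neuronal mRNAs, lies at chr4:110203737-110351939 and had H3K4me3 at several starts. At the upstream start the island held 234 reads in Setd5+/- cells and 199 reads in wild-type cells. Another H3K4me3 island, inside the gene and more than 1 kb from any RefSeq start, held 278 reads in Setd5+/- cells and 190 reads in wild-type cells. At the internal starts H3K4me3 held 338 reads in Setd5+/- cells and 467 reads in wild-type cells, with H3K27ac of 84 reads in Setd5+/- cells and 140 reads in wild-type cells. The H3K27ac that placed the gene in the active class thus came from the internal, CpG-poor starts. An H3K27me3 island lay upstream of the gene in both genotypes, 7.6 kb wide with 204 reads in Setd5+/- cells and 6.8 kb wide with 206 reads in wild-type cells. H3K36me2 and H3K36me3 had no island on the gene in Setd5+/- cells, whereas in wild-type cells 1 H3K36me2 island of 167 reads covered 7.02% of the span and 1 H3K36me3 island of 136 reads covered 8.64%. Chromosome 4 as a whole went the other way, with H3K36me2 over 10.7 Mb in Setd5+/- cells and 3.46 Mb in wild-type cells and H3K36me3 over 14.2 Mb in Setd5+/- cells and 12.3 Mb in wild-type cells. These totals do not show where on the chromosome the difference lies or whether it reaches Elavl4.

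Elavl3, a second Hu protein found in neurons, lies at chr9:22015005-22052146 and was close to unmarked. Setd5+/- cells had neither H3K4me3 nor H3K27me3 at its start. Wild-type cells had 1 H3K4me3 island of 29 reads, whose 24.2 reads per kb were higher than only 1.89% of the islands in that list, and 1 H3K27me3 island of 34 reads just upstream. In the tenth of wild-type H3K4me3 islands with the lowest density, 38.9% had no Setd5+/- island over them, against 11.5% of the whole list. An H3K36me3 island reached 0.528% of the span in both genotypes, with 178 reads in Setd5+/- cells and 130 reads in wild-type cells, and lay mainly over the neighbouring gene Prkcsh.

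Rbfox3, the splicing factor known as the neuronal nuclear antigen NeuN, lies at chr11:118489760-118911597 and had almost no islands over its 422 kb. H3K4me3 gave 1 small island inside the gene, of 32 reads in Setd5+/- cells and 25 reads in wild-type cells, 16 kb past the only RefSeq start. H3K27me3 had no island on Rbfox3 in Setd5+/- cells and 7 islands with 400 reads in wild-type cells, which covered 2.99% of the span, the largest of 134 reads near the upper annotated end. The gene was thus without H3K27me3 islands in Setd5+/- cells at all 7 places marked in wild type. Of 32 wild-type H3K27me3 islands over the 9 genes, 16 had no Setd5+/- island over them, against 57.1% of that whole list. In the tenth of the list with the highest density the share was 18.9%. There it held for 2 of 4 islands over the 9 genes, that of 134 reads at Rbfox3 and that of 46 reads at Tubb3. Whether 2 of 4 differs from 18.9% was not tested.

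Myt1l, a zinc finger transcription factor that represses non-neuronal genes in neurons, lies at chr12:29527590-29923216 and had H3K4me3 and H3K27me3 together at its first start in both genotypes. H3K4me3 held 44 reads in Setd5+/- cells and 61 reads in wild-type cells. H3K27me3 formed a domain around the starts that held 711 reads in 2 islands of 15.4 and 4.0 kb in Setd5+/- cells, and 1269 reads in 1 island of 21.8 kb in wild-type cells. In each list the island with the most H3K27me3 reads over the 9 genes was in this domain, with 582 reads in Setd5+/- cells and 1269 reads in wild-type cells. Over the whole gene H3K27me3 covered 4.70% in Setd5+/- cells and 7.64% in wild-type cells, and 3 wild-type islands from 39 to 164 kb past the start had no Setd5+/- island over them. Over the gene and its flanks there were 12 H3K4me1 islands in Setd5+/- cells and 15 in wild-type cells, and the far part held 1 H3K36me2 island of 247 reads in Setd5+/- cells and 220 reads in wild-type cells.

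Where an island was present in both genotypes, the density of reads was compared as the log2 ratio of reads per kb, Setd5+/- over wild type, relative to the median over shared regions of the 16 autosomes other than 1, 4 and 15. The 95% exact intervals cover counting error only. At 19 shared H3K4me3 regions of the 9 genes the interval lay above 0 at 6 and below 0 at 1, against 16.9% of all 19870 shared H3K4me3 regions above 0 and 2875 of them below. Of the 6, 3 were islands of Map2. Tubb3 had 0.87 (0.24 to 1.54), and 98.1% of all shared H3K4me3 regions lay below it. The start of Map2 had 0.04 (-0.13 to 0.21) and its internal island -0.02 (-0.14 to 0.11), so both intervals held 0, while weaker Map2 islands at 12.0, 52.5 and 212 kb had 0.85, 0.65 and 1.02. The median over shared H3K4me3 regions of chromosome 1 was 0.29, above the upper bounds of the Map2 start and internal island. Relative to chromosome 1 the start had -0.25 and the internal island -0.31, and the weaker islands 0.56, 0.36 and 0.73. At Elavl4 the upstream start had 0.31 (0.03 to 0.59) and the internal starts -0.54 (-0.74 to -0.33), so that the starts of 1 gene differed from each other by more than counting error. Another Elavl4 island inside the gene, at 61.6 kb and near the internal starts, had 0.31 (0.04 to 0.58). The median over shared H3K4me3 regions of chromosome 4 was 0.07, above the lower bounds of the upstream start and of this island. Relative to chromosome 4 the upstream start had 0.24, this island 0.24 and the internal starts -0.61. The Gap43 end had -0.14 (-0.35 to 0.07), and the first start of Myt1l 0.04 (-0.55 to 0.62).

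**Figure D4:**
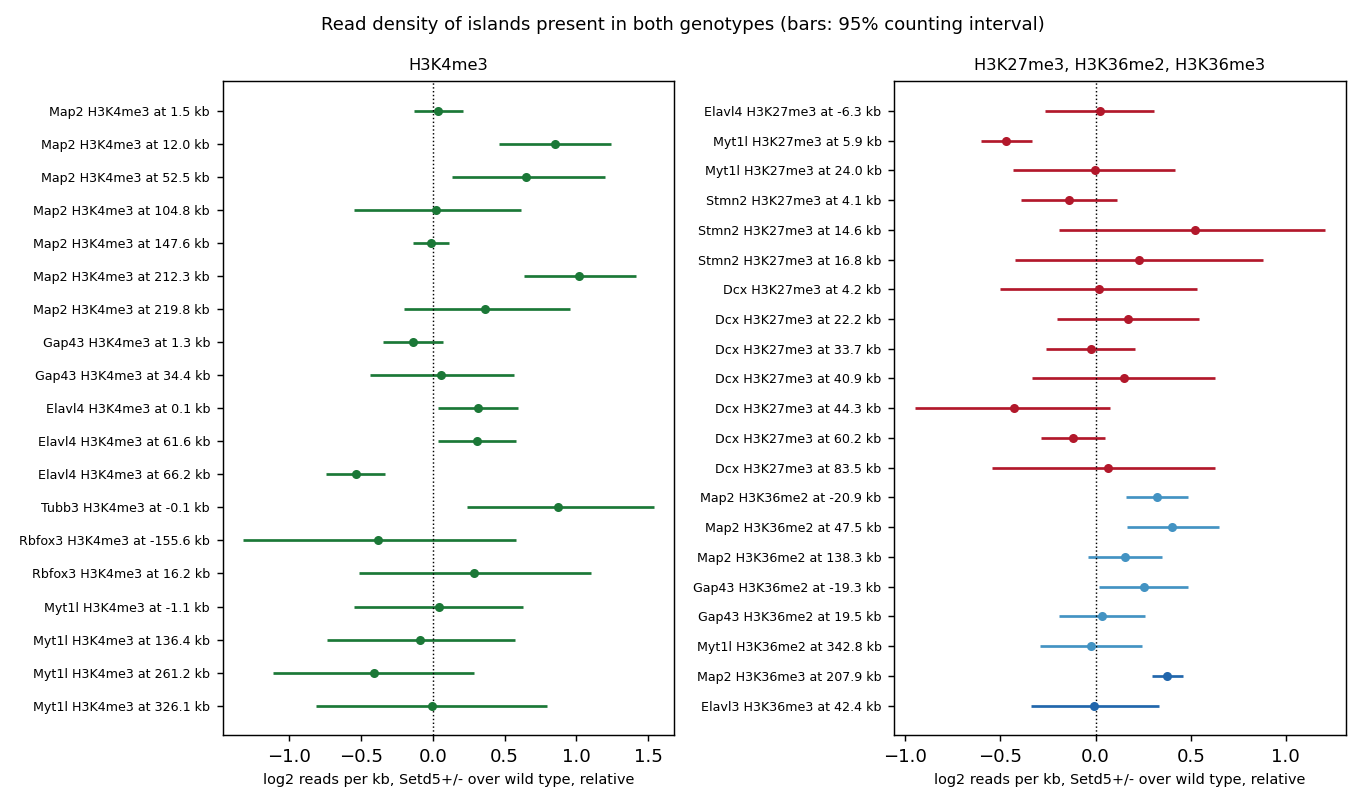
Log2 ratio of reads per kb, Setd5+/- over wild type, at regions of the genes marked in both genotypes, relative to the median over shared regions of 16 autosomes; points are regions, bars are 95% exact intervals that cover counting error only, and labels give the distance of the region's middle from the start in kb. The Tubb3 start, at 0.87, lies to the right of 0, and the Myt1l H3K27me3 domain, at -0.47, to the left.

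For H3K27me3, 13 shared regions gave 1 interval below 0 and none above, against 12.8% of all shared regions below 0 and 9.03% above. It was the Myt1l domain, at -0.47 (-0.60 to -0.34), which 9.46% of all shared H3K27me3 regions lay below. Taken relative to total island reads instead, this value changed sign to 0.049. The 7 Dcx regions ranged from -0.43 to 0.17 and every interval held 0, and the Stmn2 end had -0.14 (-0.39 to 0.11). At Dcx and Stmn2 covered length differed between genotypes, and no density within shared stretches differed beyond counting error. The H3K36me3 region of Map2 had 0.38 (0.30 to 0.46) and 0.03 relative to the shared regions of chromosome 1, and of all shared H3K36me3 regions 12.7% had an interval above 0 and 6.00% below. The 2 shared H3K36me2 regions of Gap43 had 0.03 (-0.19 to 0.26) inside the gene and 0.25 (0.02 to 0.49) beyond its upper end, the second of which was -0.73 relative to total island reads. Over all 9 genes, H3K36me2 intervals lay above 0 at 3 of 6 regions and below 0 at none, against 25.2% of all shared H3K36me2 regions above and 1.78% below. All 3 changed sign relative to total island reads, the pair in Map2 to -0.66 and -0.58, and relative to chromosome 1 that pair had 0.01 and 0.09. H3K27ac intervals lay above 0 at 1 and below 0 at 2 of 13 regions, against 5.38% of all shared regions above and 3.83% below, and H3K4me1 intervals above 0 at 3 and below 0 at 1 of 33, against 4.11% above and 2.01% below. Most acetylated and H3K4me1 regions marked in both genotypes therefore had intervals that held 0.

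Other genes of neuronal differentiation were described for context from a list of 36, which included tubulins, neurofilaments, stathmins and RNA-binding proteins. In Setd5+/- cells 30 of them, and in wild-type cells 32 of them, had H3K4me3 at a start, with H3K27ac at 11 in Setd5+/- cells and 10 in wild-type cells and H3K27me3 at 11 in each. H3K36me3 covered at least 25% of the span at 11 of 36 in Setd5+/- cells and 8 of 36 in wild-type cells, against 1 of the 9 genes, Map2, in each genotype. Over all genes the share was 30.3% in Setd5+/- cells and 29.3% in wild-type cells. The median H3K36me3 covered percent was 0 for the 9 genes and 0 for the 36 in both genotypes, against 39.1% in Setd5+/- cells and 33.8% in wild-type cells for the 12 radial glia genes. H3K27me3 covered at least 25% at 1 of the 9 genes, Dcx, in each genotype, against 2.76% of all genes in Setd5+/- cells and 4.19% in wild-type cells. H3K36me2 did so at Map2 in Setd5+/- cells and at Gap43 in wild-type cells, against 3.07% of all genes in Setd5+/- cells and 1.10% in wild-type cells.

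**Figure D5:**
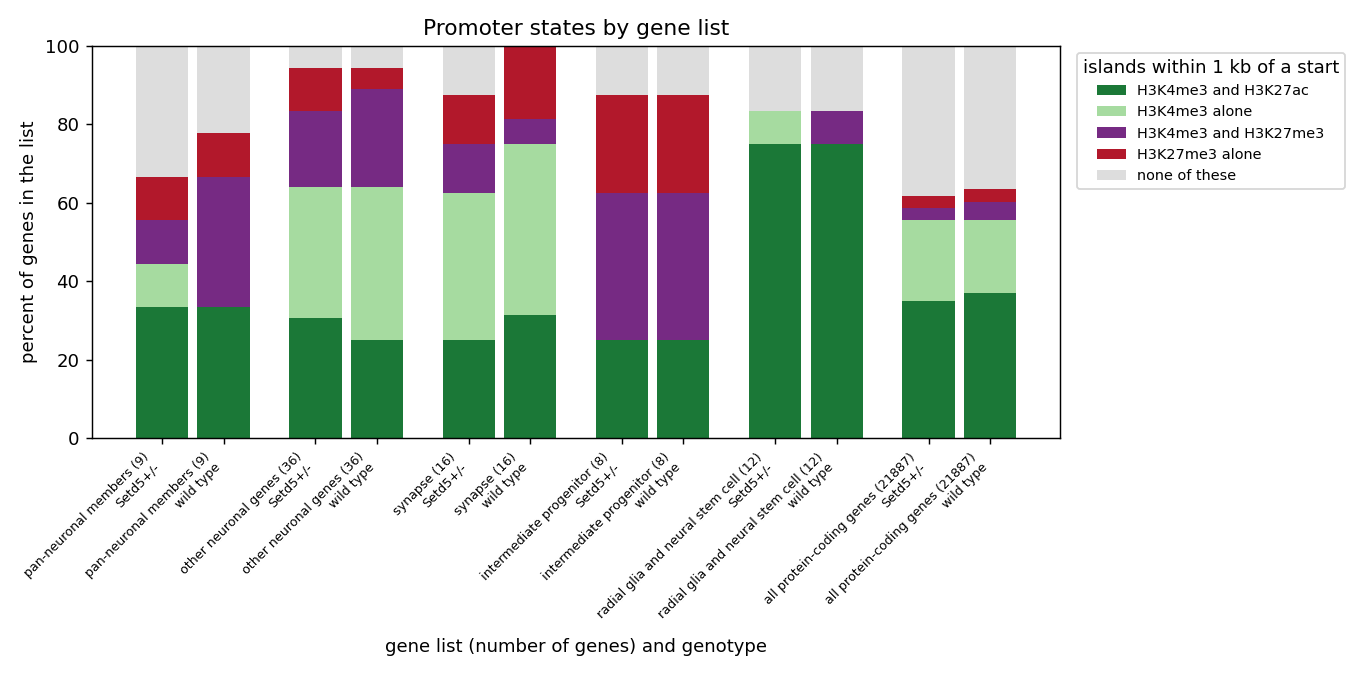
Share of genes in each promoter class, in percent, for the 9 pan-neuronal genes, other neuronal genes, synapse, intermediate progenitor and radial glia genes and all protein-coding genes, with the Setd5+/- bar to the left of the wild-type bar in each pair. The 9 genes had both H3K4me3 and H3K27me3 at 1 gene in Setd5+/- cells and 3 in wild-type cells, and radial glia genes were mostly in the class with H3K4me3 and H3K27ac.

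Among these 36 genes, differences in H3K36me3 of at least 10 points ran both ways, with 3 genes higher and 2 lower in Setd5+/- cells, as did those in H3K27me3, with 2 higher and 2 lower, and in H3K36me2, with 1 of each. Over all genes the shares were 9.74% higher and 10.6% lower for H3K36me3, 1.55% and 4.24% for H3K27me3, and 3.63% and 1.95% for H3K36me2. Gng3, a G protein subunit, was covered over 100% in Setd5+/- cells and 0% in wild-type cells, Uchl1, a neuronal ubiquitin hydrolase, over 57.9% in Setd5+/- cells and 0% in wild-type cells, and the tubulin Tubb2a over 100% in Setd5+/- cells and 67.6% in wild-type cells. Nova1, a neuronal splicing factor, was covered over 25.4% in Setd5+/- cells and 58.3% in wild-type cells, and Myt1, a relative of Myt1l, over 38.1% in Setd5+/- cells and 56.8% in wild-type cells. For H3K27me3 the neurofilament genes split. Nefm was covered over 29.4% in Setd5+/- cells and 0.0733% in wild-type cells and Nefl over 50.3% in Setd5+/- cells and 21.7% in wild-type cells, while Nefh had none in Setd5+/- cells and 22.2% in wild-type cells. Dpysl5, a cytosolic protein of growing axons, had 3.64% in Setd5+/- cells and 19.2% in wild-type cells. For H3K36me2 the splicing factor Rbfox2, on chromosome 15, had 81.6% in Setd5+/- cells and 6.28% in wild-type cells, and Dpysl3 had none in Setd5+/- cells and 17.0% in wild-type cells. The promoter class differed at 10 of the 36 genes, beside 16.6% of all genes: Mapt, Map1b, Ina, Stmn4, Rbfox1, Rbfox2, Celf4, Dclk1, Crmp1 and St18. Ina, an intermediate filament gene, matched Elavl3 in promoter class, with none of the marks at a start in Setd5+/- cells and both H3K4me3 and H3K27me3 in wild-type cells, though H3K27me3 covered 11.3% of its span in Setd5+/- cells and 14.3% in wild-type cells. Crmp1 matched Tubb3 with H3K4me3 alone in Setd5+/- cells and both marks in wild-type cells.

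The genes for the repressor REST and its partner carried H3K36me3 in both genotypes. Rest had H3K36me3 over 88.0% of its span in Setd5+/- cells and 88.0% in wild-type cells, with a SETD5-V5 island over 53.6% of it in wild-type cells. Its start had H3K4me3 and H3K27ac in Setd5+/- cells and H3K4me3 without H3K27ac in wild-type cells. Rcor1 had H3K36me3 over 32.3% in Setd5+/- cells and 37.5% in wild-type cells and H3K4me3 with H3K27ac at its start in both.

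Likeness to the middle of the 9 genes was measured as the mean absolute difference, over the 13 lists, between a gene's covered percent and the median of the 9, for spans with 5 kb flanks. The 5 closest of 15845 other genes were Ptprh at 0.026 points, Sema4f at 0.0814, Syt17 at 0.118, Ptpn5 at 0.120 and Tshz3 at 0.127. As 3461 genes lay within 1 point, the median profile of a little H3K4me3 and a little wild-type H3K27me3 is shared widely. The 9 genes themselves ranged from 0.27 points for Rbfox3, through 8.79 for Dcx and 10.7 for Gap43, to 25.7 for Map2, so they did not share 1 chromatin profile.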

How the data were processed

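The data are islands of 13 ChIP-seq libraries, and the inputs were not used here. The submitters' processing notes name FastQC, alignment by Bowtie2 2.2.3 to mm10 (GRCm38) and SICER 1.1, which merges enriched windows into islands. Settings are present for H3K36me2, H3K36me3 and SETD5-V5 only, where per the file headers windows were 800 bp, gaps 2400 bp and the false discovery rate 0.01. Widths in the remaining lists step by 200 bp. Each island comes with a whole number, deposited without a column name, that was taken from its values to be the authors' raw counts of reads. No header or label says whether inputs served as controls or how many reads a library had, so depth outside islands is unknown. Reads are not independent molecules, so intervals cover counting error only.

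The genes, lists and comparisons were chosen with earlier results of these data known. Named genes were the 9 genes, up to 5 of the 36 other neuronal genes with the largest difference in each direction of at least 10 points for each of H3K36me3, H3K36me2 and H3K27me3, those with a differing promoter class, the 5 nearest in profile among genes of at least 5 kb, and Rest and Rcor1. Starts came from RefSeq promoter windows, which 17492 of 21887 genes and 7 of the 9 had. Other genes used either annotated end, and distances for Gap43 run from the end with H3K4me3, a choice made after its values were seen. Shared density used overlapping islands merged over both genotypes, with exact (Clopper-Pearson) intervals from scipy 1.17.1. Python 3.11.15, numpy 2.4.6, pandas 2.3.3 and matplotlib 3.10.9 were used. Covered percent was tested on simulated islands placed over known shares of real genes. Promoter calls were checked against direct overlap with the wild-type H3K4me3 islands. The other steps had no such test. Other windows, thresholds, flanks and references were tried as alternatives.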

Additional observations from a re-analysis of the deposited data

How the results depend on the processing

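Of 104 counts over the 9 genes under alternatives, 79 stayed within 1.5 times the main count and 25 did not. With an island required over the start base, H3K27ac marked 1 gene in Setd5+/- cells and 1 in wild-type cells, H3K4me1 0 in each genotype, and H3K27me3 2 in wild-type cells. With a 5 kb window, H3K27me3 marked 4 genes in Setd5+/- cells, and with either annotated end as start H3K4me1 marked 1 there. A stricter island threshold, or lists of equal covered length, left H3K4me1 at 1 gene in wild-type cells. Without chromosomes 1, 4, 15, X and Y, which removes Map2, Elavl4 and Dcx, Setd5+/- cells had H3K4me3 at 3 starts, H3K27ac at 1 and H3K4me1 at 0, and wild-type cells had H3K27ac at 1. The same step left 0 genes with H3K36me3 or H3K27me3 over at least 25% in either genotype, and 0 with H3K36me2 in Setd5+/- cells. At a limit of 10%, Setd5+/- cells had 2 genes each for H3K36me3, H3K36me2 and H3K27me3, and wild-type cells 3 for H3K27me3. At 50%, wild-type H3K36me3 had 0 genes, and under the stricter threshold wild-type H3K36me2 had 0. With 10 kb flanks, 5 wild-type H3K36me3 islands touched the genes.

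Of the differences of at least 10 points, the stricter threshold brought Map2 to 5.61 points for H3K27ac and 8.83 for H3K4me1, 5 kb flanks brought Gap43 H3K36me3 to 9.40, and equal covered length brought Dcx H3K27me3 to -8.82. Equal covered length was set over whole lists, so the island length of chromosomes 1 and X weighs there too. Read densities taken relative to total island reads, in which the island length of chromosomes 1 and X weighs, changed sign at 4 regions: the Myt1l H3K27me3 domain around the starts to 0.049, Map2 H3K36me2 to -0.66 and -0.58, and Gap43 H3K36me2 beyond its upper end to -0.73. Taken relative to the shared regions of its own chromosome, the density left its main interval at 7 regions and stayed inside at 79. No paired analysis was possible because each group has 1 library and the labels give no replicate numbers, and no library could be left out for the same reason. Islands of about 20 to 50 reads, such as many at Tubb3, Elavl3 and Rbfox3, rest on few counts. Absence from a list does not show absence of the mark. Few reads did not always mean low density. Wild-type H3K27me3 islands of 39, 35 and 46 reads at Tubb3 were denser than 11.4%, 86.4% and 90.7% of their list. The Rbfox3 island of 134 reads was denser than 95.6% of it. At Elavl3 the wild-type H3K4me3 island was denser than only 1.89% of its list, and the H3K27me3 island than 65.4%.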
